A study of Mus musculus with 6 samples.

Results

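The 7 genes described here encode the plasminogen activators (Plau, Plat), the urokinase receptor (Plaur), 2 inhibitors of the activators from the serpin family (Serpinb2, Serpine2) and the subunits of a surface complex that binds plasminogen (Anxa2, S100a10). They were chosen by name for their roles, with earlier results of these data known, and make up 7 of the 36163 genes named on the array, each with 1 probe. N18-Fms cells derive from TRAMP C2H, an epithelial clone of a mouse prostate tumor of the TRAMP transgenic model. N18 is 1 neomycin-resistant clone that carries firefly luciferase driven by a CMV promoter, and the Fms cells are the population obtained after retroviral transduction of N18 with mouse c-fms cDNA, which encodes CSF-1R, the receptor of colony-stimulating factor 1 (CSF-1), and sorting on surface CSF-1R. All groups carried luciferase and c-fms and grew in serum with dihydrotestosterone, and the study detected CSF-1 in the medium of the parental N18 clone. The groups were Control (left unstimulated, labelled vehicle), 24H CSF1 and 48H CSF1 (recombinant murine CSF-1 at 100 ng/mL for the labelled 24 h or 48 h, whereas the methods give shorter times), with 2 arrays per group from 2 independent experiments.

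Plasmin is a broad serine protease that dissolves fibrin and breaks down matrix proteins. It is cut from plasminogen by 2 activators, urokinase (uPA, Plau), which works mainly at the cell surface bound to its receptor uPAR (Plaur), and tissue-type activator (tPA, Plat), which works mainly on fibrin. Serpins trap the activators in inactive complexes, and annexin A2 with its partner S100A10 holds plasminogen and tPA at the membrane. Urokinase and its receptor are long-studied markers of invasion in carcinomas, prostate cancer included.

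The probes decide what each value reports, so the start of each one is shown. Each probe is 60 bases long, and its first 30 bases are printed 5′ to 3′ in lower case, with no part marked. The files place them on mouse build mm9, at chr14:21662242-21662301 (plus strand) for Plau, chr8:23892531-23892590 (plus) for Plat, chr7:25260569-25260628 (plus) for Plaur, chr1:109422046-109422105 (plus) for Serpinb2, chr1:79793476-79796093 (minus) for Serpine2, chr9:69339532-69339591 (plus) for Anxa2 and chr3:93368437-93368496 (plus) for S100a10. The Serpine2 probe spans 2618 bases of the genome, more than its own length, so it crosses a gap between aligned blocks, whereas the other 6 lie in 1 unbroken stretch. Exon and UTR positions of the probes were not analysed here.
Plau: gtgtatttctgtatctaactgcaagtctag
Plat: aaggttacgaattacctagactggattcac
Plaur: ccctcgtgttgtcttctttggacctcagtt
Serpinb2: catcataagtaagcatgcttacttacacac
Serpine2: aagcaaaaattgaagtcagtgaagatggaa
Anxa2: gtctgtgacatgagacacttcctcttatgt
S100a10: caaatgagatccaactccaattcaacaatc

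Between 58.7% and 72.0% of the 59305 non-control spots of an array were well above background, and no spot was saturated. The first 24H CSF1 replicate lay on another slide and scan than the other 5 arrays. Markers of the labelled cells were weak in part. Krt8, a keratin of simple epithelia, gave a mean log2 level of -2.71 in Control relative to the 75th percentile of the array, while Cdh1 (E-cadherin) was not well above background on any array, Epcam on 1 array of 48H CSF1 only and Krt18 on neither Control array. Of 8 leukocyte markers, Lyz2 and Spi1 were not well above background on any array, whereas Itgam (CD11b) was at a log2 level of 5.31 in Control, Csf1r, which the cells also carry as a cDNA, at 5.0, Emr1 at -2.85 and Ptprc (CD45) at -3.82, each well above background on both Control arrays. Of the 5 leukocyte markers tested 0 were called at either time. Krt8 rose at 48H CSF1 (log2 fold change 1.98, limma adjusted p = 0.0106). In these bulk RNA samples a change in the level per cell cannot be told apart from a change in the share of cells that carry the transcript.

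CSF-1 was followed by higher mRNA of both plasminogen activators, of the urokinase receptor and of plasminogen activator inhibitor 2 (Serpinb2), whereas Serpine2, Anxa2 and S100a10 did not pass the test. At 24H CSF1, 4 of the 7 genes rose and 0 fell at an adjusted p under 0.05, where 14.0% of all 24648 genes tested were called, 8.02% upwards and 5.99% downwards. At 48H CSF1 the same 4 genes rose and 0 fell, where again 14.0% were called, 6.58% upwards and 7.38% downwards. The median log2 fold change of the 7 genes was 1.41 at 24H CSF1 and 1.22 at 48H CSF1, against 0.037 and -0.044 over all genes tested. All 7 genes were tested, 6 of them well above background on every array and Serpine2 through its Control arrays. At the thresholds of the study (unadjusted p under 0.05 and at least a 2-fold change) the 4 genes also passed at both times, where 7.68% and 6.49% of all genes did, 5.86% and 4.66% upwards. Both comparisons share the Control arrays and are not independent of each other. With no separate unstimulated group for each time, an effect of time in culture cannot be told apart from one of CSF-1.

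**Figure D1:**
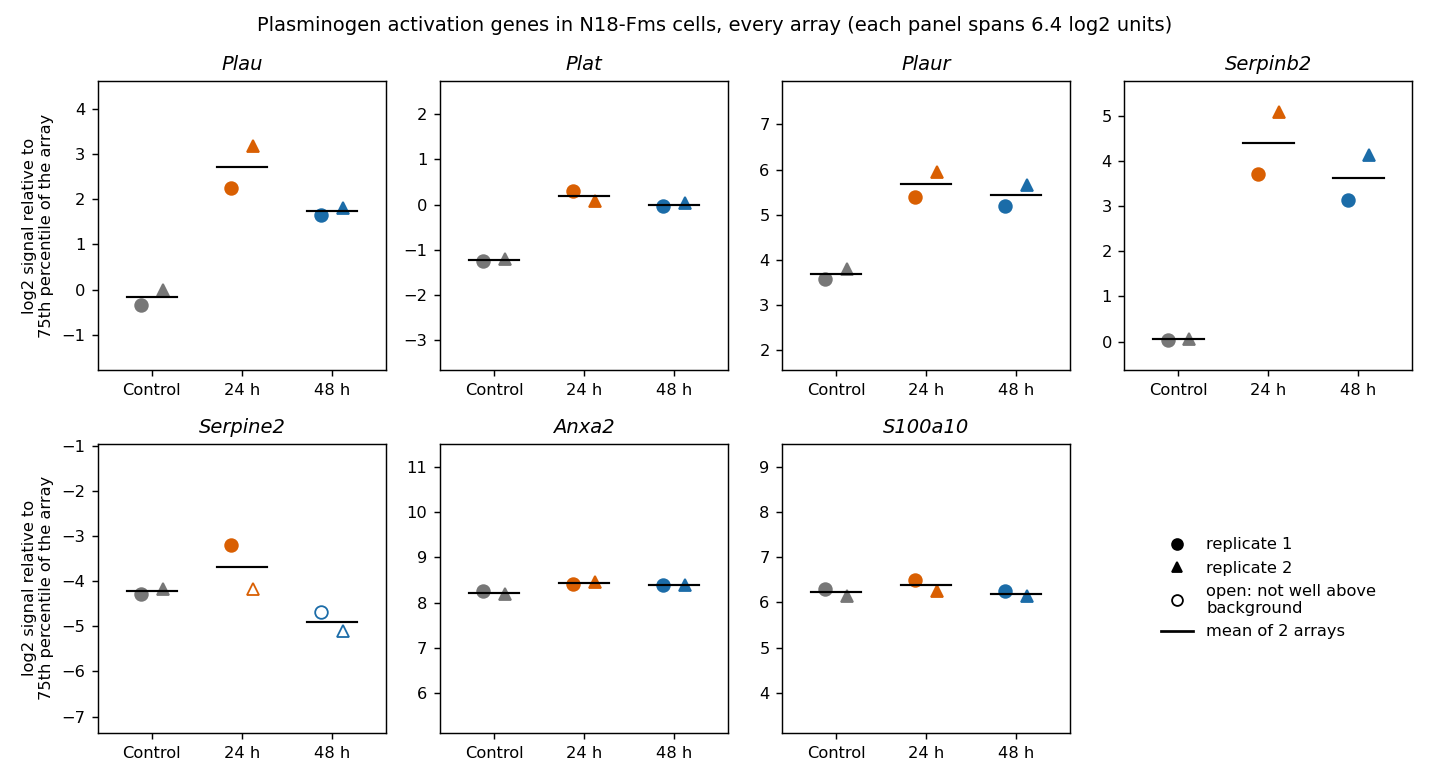
Level of each gene on every array, as log2 signal relative to the 75th percentile of the array (vertical axis, each panel spanning the same number of log2 units) in Control, 24H CSF1 and 48H CSF1, with circles for replicate 1, triangles for replicate 2, open symbols for arrays not well above background and lines for the mean of 2 arrays. Both CSF-1 groups lie above both Control arrays for Plau, Plat, Plaur and Serpinb2, while those of S100a10 overlap Control.

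Plau, which encodes urokinase, gave background-subtracted signals of 432.3 and 611.9 on the Control arrays, 2725 and 5398 with 24H CSF1 and 1743 and 2118 with 48H CSF1. Relative to the 75th percentile of each array this was a log2 level of -0.17 ± 0.25 in Control, 2.71 ± 0.65 at 24H CSF1 and 1.74 ± 0.11 at 48H CSF1 (mean ± SD, n = 2). Every stimulated array lay above both Control arrays, and the 24H CSF1 arrays lay above the 48H CSF1 arrays. Plau rose 7.4-fold at 24H CSF1 (95% interval 4.23 to 12.9, limma adjusted p = 0.00794), which ranked 251 by size of change among the 24648 genes tested. At 48H CSF1 it rose 3.75-fold (2.15 to 6.56, limma adjusted p = 0.0223). The call at 24H CSF1 was lost without Control replicate 1 (limma adjusted p = 0.0526) or 2 (0.0571). That at 48H CSF1 was lost without Control replicate 1 (0.117) or 2 (0.0971) and without 48H CSF1 replicate 1 (0.125) or 2 (0.101).

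Plat, which encodes the tissue-type activator, gave signals of 233.7 and 266.3 in Control, 708.7 and 628.7 at 24H CSF1 and 540.8 and 616 at 48H CSF1. Its log2 level was -1.22 ± 0.03 in Control, 0.19 ± 0.17 at 24H CSF1 and 0 ± 0.04 at 48H CSF1 (mean ± SD, n = 2). The stimulated arrays lay close together and all above Control. Plat rose 2.66-fold at 24H CSF1 (95% interval 2.13 to 3.3, limma adjusted p = 0.00466) and 2.32-fold at 48H CSF1 (1.87 to 2.89, limma adjusted p = 0.00629). Its call at 24H CSF1 was held whichever array was left out, with adjusted p between 0.0152 and 0.0459, while the call at 48H CSF1 was lost without Control replicate 2 (limma adjusted p = 0.0527) or 48H CSF1 replicate 1 (0.063). The rise of Plat was smaller than that of Plau in both comparisons, and the difference between the 2 genes was not tested.

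Plaur, which encodes the GPI-anchored receptor that holds urokinase at the cell surface, gave signals of 6523 and 8484 in Control, 24080 and 36940 at 24H CSF1 and 20360 and 30400 at 48H CSF1. On the log2 scale its level was 3.68 ± 0.16 in Control, 5.67 ± 0.39 at 24H CSF1 and 5.43 ± 0.32 at 48H CSF1 (mean ± SD, n = 2). Both stimulated groups lay above Control and overlapped each other. Plaur rose 3.98-fold at 24H CSF1 (95% interval 2.57 to 6.15, limma adjusted p = 0.0102) and 3.36-fold at 48H CSF1 (2.17 to 5.19, limma adjusted p = 0.0152). At 24H CSF1 the call was lost without Control replicate 1 (limma adjusted p = 0.0643) or 2 (0.0683) or without 24H CSF1 replicate 2 (0.068). At 48H CSF1 it was lost without either Control replicate (0.0932 and 0.082) or either 48H CSF1 replicate (0.069 and 0.0691).

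Serpinb2, which encodes plasminogen activator inhibitor 2, an inhibitor of urokinase that stays largely inside the cell, changed most of the 7 genes. Its signals were 566 and 637.2 in Control, 7433 and 20310 at 24H CSF1 and 4857 and 10480 at 48H CSF1. The Control arrays agreed closely, at a log2 level of 0.05 ± 0.01, and the stimulated arrays spread widely, at 4.39 ± 0.98 with 24H CSF1 and 3.63 ± 0.7 with 48H CSF1 (mean ± SD, n = 2). Serpinb2 rose 20.3-fold at 24H CSF1 (95% interval 8.09 to 51, limma adjusted p = 0.0096, rank 74 by size of change) and 11.9-fold at 48H CSF1 (4.76 to 30, limma adjusted p = 0.0164). The call at 24H CSF1 was lost without Control replicate 1 (limma adjusted p = 0.061) or 2 (0.0758) or without 24H CSF1 replicate 2 (0.0544). At 48H CSF1 it was lost without either Control replicate (0.0962 and 0.0997) or either 48H CSF1 replicate (0.0697 and 0.0709). The lowest log2 fold change with any array left out was 3.65 at 24H CSF1 and 3.09 at 48H CSF1.

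Without the first 24H CSF1 replicate, the array on the other slide, all 4 genes were called at both times, and at 24H CSF1 the log2 fold changes were then 3.35 for Plau, 1.29 for Plat, 2.27 for Plaur and 5.04 for Serpinb2, against 2.89, 1.41, 1.99 and 4.34 with it.

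Serpine2, which encodes protease nexin 1, an inhibitor of thrombin and of both activators, was near background. Its signals were 28.06 and 33.89 in Control, 61.58 and 32.89 at 24H CSF1 and 21.48 and 17.48 at 48H CSF1. The second 24H CSF1 array and both 48H CSF1 arrays were not well above background. The log2 difference from Control was 0.53 at 24H CSF1 (95% interval -0.32 to 1.39, limma adjusted p = 0.353), with overlapping groups, and 0.05 without the array on the other slide. At 48H CSF1, with neither array well above background, the measured difference was -0.66 (-1.52 to 0.19, limma adjusted p = 0.256), and no change of Serpine2 can be read from these signals.

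Anxa2, which encodes annexin A2, gave signals of 167900 and 177300 in Control, 195900 and 208900 at 24H CSF1 and 184700 and 200600 at 48H CSF1. The stimulated arrays lay above both Control arrays, by a small amount. The log2 difference from Control was 0.22 at 24H CSF1 (95% interval -0.04 to 0.48, limma adjusted p = 0.224) and 0.16 at 48H CSF1 (-0.09 to 0.42, limma adjusted p = 0.345), so that changes above 1.39-fold and 1.34-fold lie outside the intervals. Centring each array on its median instead moved the median of all genes to -0.25 at 24H CSF1 and -0.14 at 48H CSF1, and turned the Anxa2 difference at 24H CSF1 to -0.06.

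S100a10, whose protein binds annexin A2 and is stabilized by it, gave signals of 43360 and 43050 in Control, 51420 and 45890 at 24H CSF1 and 41880 and 42130 at 48H CSF1. The groups overlapped in both comparisons with Control. The log2 difference was 0.16 at 24H CSF1 (95% interval -0.18 to 0.5, limma adjusted p = 0.494) and -0.03 at 48H CSF1 (-0.38 to 0.31, limma adjusted p = 0.899), and its direction turned with the scaling at both times. For both subunits the interval bounds the change and does not show that the level stayed the same.

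**Figure D2:**
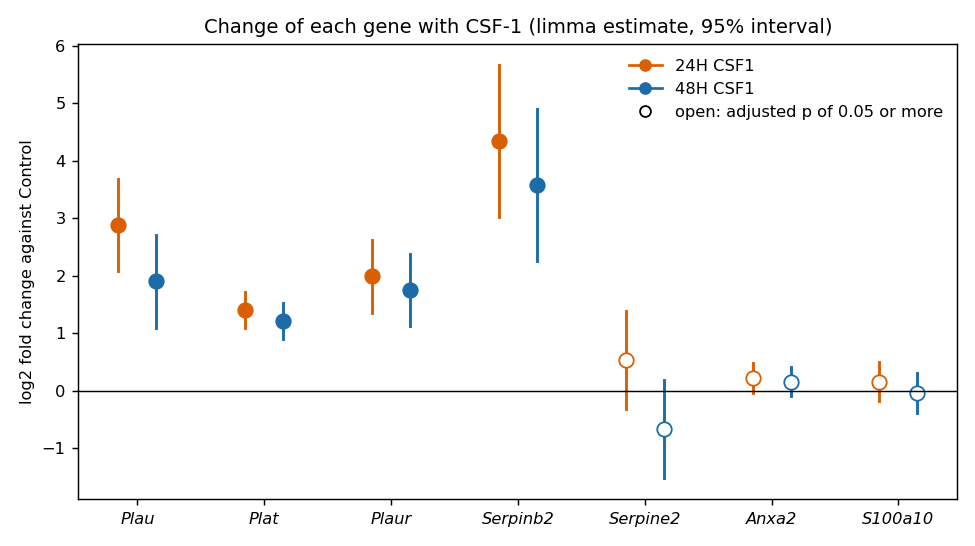
Fitted log2 fold change of each gene against Control (vertical axis) at 24H CSF1 and 48H CSF1, with points for the limma estimate, bars for its 95% interval and open symbols for an adjusted p of 0.05 or more. The intervals of Plau, Plat, Plaur and Serpinb2 lie above 0 at both times, from 0.9 at the lowest (Plat, 48H CSF1), and those of Serpine2, Anxa2 and S100a10 include 0.

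Whether the rise lessened between the labelled times was tested directly. Between 48H CSF1 and 24H CSF1, 0 of the 7 genes and 0 of the 24648 genes tested (0.00%) had an adjusted p under 0.05 in limma, while 3358 genes had an unadjusted p under 0.05. All 7 estimates were below 0, as was the median of all genes tested (-0.085), and that of Anxa2 (-0.05) lay above this median. With median centring the median of all genes was 0.1 and Anxa2 was at 0.13. Plau was at a log2 difference of -0.98 (95% interval -1.79 to -0.17, limma adjusted p = 0.287), without overlap between the groups. Serpinb2 was at -0.77 (-2.09 to 0.56, limma adjusted p = 0.573, from -1.46 to -0.07 with 1 array left out), Plaur at -0.24 (limma adjusted p = 0.704) and Plat at -0.19 (limma adjusted p = 0.552), with overlapping groups for Serpinb2 and Plaur. Serpine2 was at -1.2 as measured (limma adjusted p = 0.243), with 1 of the 4 arrays well above background, at -0.71 without the first 24H CSF1 replicate and at -0.14 with normexp and quantile normalization. It was the single gene of the 7 past the thresholds of the study, in the downward direction. Over all genes, 2.27% passed in either direction and 0.868% upwards, so the rest passed downwards. The Plaur difference turned to 0.03 without 24H CSF1 replicate 2.

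The groups did not overlap in 5 of the 7 genes at 24H CSF1 and 6 at 48H CSF1 against Control, where 59.0% and 58.8% of all genes tested did not overlap, and in 5 between the stimulated groups, where 47.9% did not.

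Regions just upstream of the RefSeq transcription start on GRCm38.p6 were read for the 4 of the 7 genes with an entry, of which Plaur and Serpinb2 rose at both times and Serpine2 and Anxa2 did not pass the test. The windows of Plaur and Serpinb2 precede starts that lie inside the RefSeq span of the gene, and those of Serpine2 and Anxa2 precede its outer end. The 250 bases before each start were searched on both strands for the AP-1 motif TGANTCA, which reads the same on both strands, the GAS motif TTCNNNGAA, bound by STAT factors, and the TATA box TATAAA. They occur in 6.75%, 7.02% and 12.4% of the 32851 windows of the same length. The windows of Plaur (chr7:24462233-24462482, plus strand), Serpinb2 (chr1:107511173-107511422, plus strand) and Anxa2 (chr9:69453433-69453682, plus strand) are shown 5′ to 3′ because each holds an AP-1 motif, with matched motifs in capitals.
Plaur: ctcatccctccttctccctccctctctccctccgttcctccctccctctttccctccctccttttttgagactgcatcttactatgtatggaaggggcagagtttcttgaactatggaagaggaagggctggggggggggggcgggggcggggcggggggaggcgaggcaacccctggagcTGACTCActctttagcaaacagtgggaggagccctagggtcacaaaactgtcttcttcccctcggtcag
Serpinb2: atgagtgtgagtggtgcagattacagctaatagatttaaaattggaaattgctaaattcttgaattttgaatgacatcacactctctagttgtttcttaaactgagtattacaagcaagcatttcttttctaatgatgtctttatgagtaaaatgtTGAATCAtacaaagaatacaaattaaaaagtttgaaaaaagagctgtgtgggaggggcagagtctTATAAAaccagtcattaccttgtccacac
Anxa2: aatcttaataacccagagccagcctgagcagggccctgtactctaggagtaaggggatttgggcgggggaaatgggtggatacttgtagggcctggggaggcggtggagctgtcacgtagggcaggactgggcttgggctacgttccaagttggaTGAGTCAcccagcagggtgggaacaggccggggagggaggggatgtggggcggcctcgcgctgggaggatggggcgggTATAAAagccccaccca

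In the Plaur window the AP-1 match TGACTCA lies 69 to 63 bases before the start. In that of Serpinb2 the match TGAATCA lies 94 to 88 bases before it and TATAAA 29 to 24 bases before it, and the window of a second Serpinb2 start holds in addition the GAS match TTCCAAGAA, 77 to 69 bases before that start. In Anxa2, which did not pass the test, TGAGTCA lies 95 to 89 and TATAAA 17 to 12 bases before the start. The Serpine2 window held 0 matches. Matches are letters in a window and were not tested for binding.

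Among 26 further genes of the plasminogen system, 25 were on the array and 16 were tested, of which 2 rose and 0 fell at 24H CSF1 and 6 rose and 0 fell at 48H CSF1, with median log2 fold changes of 0.24 and 0.12. Over all genes tested, 8.02% rose and 5.99% fell at 24H CSF1 and 6.58% rose and 7.38% fell at 48H CSF1. Plg, which encodes plasminogen itself, was well above background on 1 array of each group and was not tested. Thbd, which encodes thrombomodulin, the thrombin receptor that starts protein C activation, rose at 24H CSF1 (log2 fold change 3.27, limma adjusted p = 0.00997) and at 48H CSF1 (2.88, limma adjusted p = 0.0144). Hgf, a growth factor related to plasminogen in structure, was not well above background in Control. It was at least 1.87-fold higher at 24H CSF1 and at least 1.23-fold higher at 48H CSF1 (1 of 2 arrays well above background). Tested only through its 24H CSF1 arrays, Hgf is counted among the risers by a fitted difference that depends on its background signal.

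At 48H CSF1 the other risers of this list were Serpini1, a tPA inhibitor of neurons (1.1, limma adjusted p = 0.0382), Serping1, the C1 inhibitor (1.05, limma adjusted p = 0.0265), Igf2r, the mannose 6-phosphate receptor that also binds uPAR (0.9, limma adjusted p = 0.0446), and Vldlr, which takes up complexes of activator and serpin (0.69, limma adjusted p = 0.0258), values being log2 fold changes. At 24H CSF1 these 4 had log2 differences of 0.21, 0.3, 0.67 and 0.39 and were not called. Lrp1, the main clearance receptor of such complexes, was at -0.59 (limma adjusted p = 0.0871) and -0.24 (limma adjusted p = 0.425). Of the plasminogen-binding proteins, Eno1 was at -0.04 at both times (limma adjusted p = 0.836 and 0.845) and Plgrkt, under its older name 5033414D02Rik, at -0.24 and -0.08 (limma adjusted p = 0.212 and 0.693).

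Of 26 other clade B serpins, the intracellular branch to which Serpinb2 belongs, 17 were tested. At 24H CSF1, 4 rose and 2 fell, and at 48H CSF1, 7 rose and 1 fell, with median log2 fold changes of 0.29 and 0.62, beside 8.02% up and 5.99% down of all genes at 24H CSF1 and 6.58% and 7.38% at 48H CSF1. Serpinb5, which encodes maspin, was not well above background in Control. It was at least 24.3-fold higher at 24H CSF1 and at least 3.69-fold higher at 48H CSF1 (1 of 2 arrays well above background). Tested only through its 24H CSF1 arrays, it is counted among the risers by a fitted difference that depends on its background signal. Serpinb1a, an inhibitor of neutrophil elastase, rose by a log2 fold change of 1.89 at 24H CSF1 (limma adjusted p = 0.0101) and 2.65 at 48H CSF1 (limma adjusted p = 0.00425). Serpinb1c was at least 2.72-fold and 2.79-fold higher than its background-level Control and was likewise tested only through its CSF-1 arrays. Serpinb6b fell, with log2 fold changes of -1.51 (limma adjusted p = 0.00376) and -0.72 (limma adjusted p = 0.0226). Serpinb9e and Serpinb9g rose at 48H CSF1 (1.65 and 1.43, limma adjusted p = 0.0344 for each). Named after their values were seen, to complete these counts, Serpinb6e rose at both times (0.69 and 0.63), Serpinb6d rose at 48H CSF1 (0.62) and Serpinb9, the granzyme B inhibitor, fell at 24H CSF1 (-1.17, limma adjusted p = 0.0104). Members of the 1, 6 and 9 subfamilies are related paralogs, and whether their probes bind each other's transcripts was not tested.

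All 11 other annexins were tested, of which 2 rose and 2 fell at 24H CSF1 and 3 rose and 1 fell at 48H CSF1, with median log2 fold changes of -0.09 and 0.19, where 14.0% of all genes were called at each time. Anxa10 was not well above background in Control and was at least 11.5-fold higher at 24H CSF1 and at least 37.0-fold higher at 48H CSF1. It was tested only through its CSF-1 arrays and is counted among the risers by a fitted difference that depends on its background signal. Anxa3 fell at both times (-1.57 and -1.53, limma adjusted p = 0.00356 and 0.00325) and Anxa1, a calcium-dependent membrane binder like annexin A2, fell at 24H CSF1 (-0.86, limma adjusted p = 0.0245). Anxa7 rose at both times (0.93 and 0.64, limma adjusted p = 0.0192 and 0.0477) and Anxa9 rose at 48H CSF1 (0.47, limma adjusted p = 0.0398).

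The Ly6/uPAR family shares the 3-fingered fold of the urokinase receptor. Of 18 other members, 16 were on the array and 13 were tested, of which 1 rose and 0 fell at 24H CSF1 and 3 rose and 1 fell at 48H CSF1, with median log2 fold changes of 0.01 and 0.1. The share that rose at 24H CSF1 was close to the 8.02% of all genes, and at 48H CSF1 6.58% of all genes rose and 7.38% fell. Slurp1, a secreted member, rose at 24H CSF1 (2.04, limma adjusted p = 0.00599) and lay below Control at 48H CSF1 (-0.73, limma adjusted p = 0.0721). Ly6e (0.88, limma adjusted p = 0.0109), Ly6a (0.77, limma adjusted p = 0.0192) and Ly6c1 (0.69, limma adjusted p = 0.0217) rose at 48H CSF1, and Psca, prostate stem cell antigen, fell (-0.77, limma adjusted p = 0.0429). At 24H CSF1 these 4 were at 0.01, -0.36, -0.4 and -0.63 and were not called, with Ly6a, Ly6c1 and Psca below both Control arrays.

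**Figure D3:**
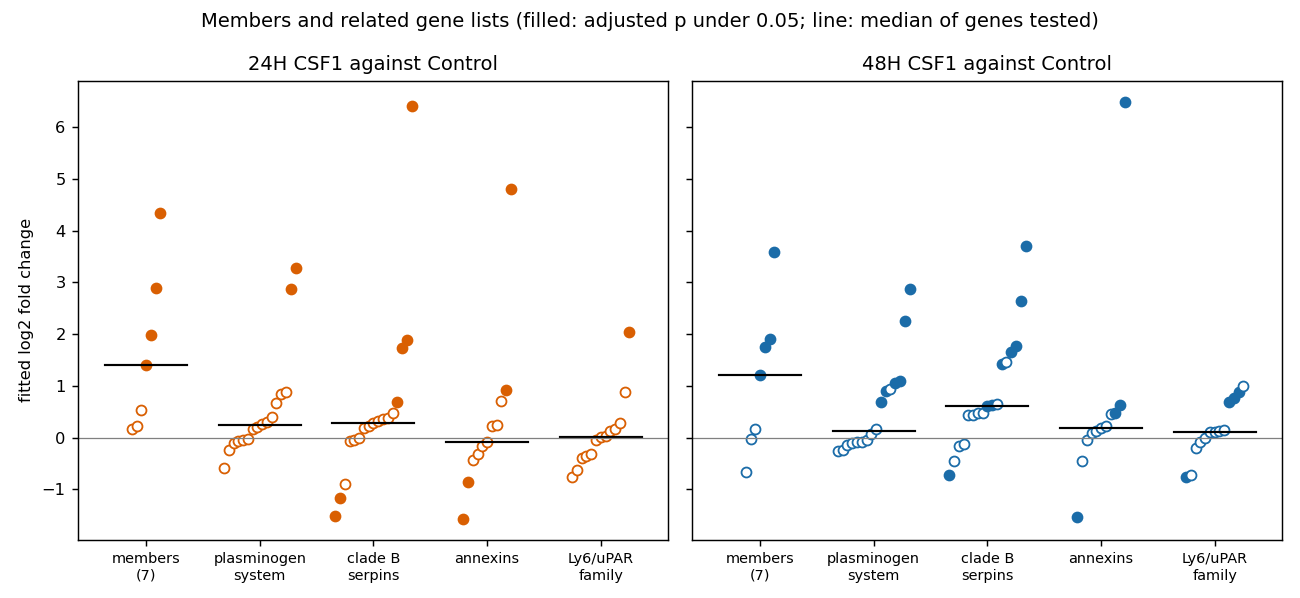
Fitted log2 fold change against Control (vertical axis) of the 7 genes and of the tested genes of 4 related lists at 24H CSF1 and 48H CSF1, with filled points for an adjusted p under 0.05 and lines for the median of the genes tested; genes at background in Control, such as Serpinb5 and Anxa10, are drawn at fitted values that depend on their background signal. The median of the 7 genes was 1.41 and 1.22, and those of the lists ranged from -0.09 to 0.62.

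Profiles over the 6 arrays were compared by the Euclidean distance of log2 levels, each centred on its own mean, as a description. Nearest to Plau was Adam19 (distance 0.443, r = 0.989 over 6 arrays), followed by Krtap11-1 and Ier3. For Plaur it was P2ry12 (0.233, r = 0.995), followed by Sdcbp2 and Tshz1. For Plat it was Pcdhb6 (0.115, r = 0.998), followed by Pcdhb18 and Plxna4. For Serpinb2 it was Itgb3 (0.478, r = 0.995), followed by Abcb9 at 0.935 and Rab15 at 0.983. Anxa2 lay nearest to Gas2l3 (0.0525), Nmb and Impg1, and S100a10 to Edem2 (0.0584), Tmem156 and 6330415G19Rik. Within the 7 genes, Anxa2 and S100a10 were the closest pair (0.291), then Plaur and Plat (0.908) and Plau and Plaur (1.02). Genes with small differences between arrays lie close by this measure, as Anxa2 and S100a10 do, and shared regulation was not tested.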

How the data were processed

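Groups were taken from the sample labels. The authors deposited the output of Agilent Feature Extraction 11.0.1.1 for each single-color array, of which the background-subtracted signal was used, a linear intensity not normalized between arrays. The mean and local background intensity of each spot, also deposited, served an alternative, as did a table of log2 values that the authors deposited. In both that table and the signals used here, 44323 probes had a value on all 6 arrays. Spots flagged as outliers were left out, and log2 signals, each scaled to the 75th percentile of its array, were analysed with limma 3.58.1 in R 4.3.3 (lmFit and eBayes, 2-sided, 3 residual and 2.39 prior degrees of freedom) on all 6 arrays, read with the data.table package (version 1.17.8). The brightest probe stood for each gene, and a gene was tested where some group had it well above background on each of its 2 arrays. P-values were adjusted by Benjamini-Hochberg over all 24648 genes tested. The script was tested on simulated data. The number of arrays limits the precision, since 2 arrays against 2 can give no exact permutation p below 0.333.

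The text names all 7 genes and, per list, at most 6 called genes with the largest mean change. Added after their values were seen were 3 more clade B serpins. It also names the 3 nearest profiles of 6 of the 7 and markers of cell types. Outside these rules, Plg, Lrp1, Eno1 and Plgrkt of the plasminogen system are named, none of which was called. The genes and lists were chosen with earlier results of these data known. Some genes of these lists are not reported here. Alternatives covered the scaling, background, filter, probe choice, prior, replicate number, single arrays, test and threshold.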

Additional observations from a re-analysis of the deposited data

How the results depend on the processing

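Over 13 choices of scaling, background correction, value table, filter, probe choice, prior spread and samples in the fit, Plau, Plaur, Plat and Serpinb2 were called at 24H CSF1 under each one, and at 48H CSF1 under each one but the omission of the filter on dim probes, which left 1 of the 4 called (Plat), with limma adjusted p of 0.0603 for Plaur, 0.0627 for Serpinb2 and 0.0788 for Plau. Leaving out 1 array at a time left between 1 and 4 of the 7 genes called at 24H CSF1 and between 0 and 4 at 48H CSF1; a group with 1 array is then assumed to vary like the others. A Student t-test, which the study names in its statistics section but not for the arrays, was also run. It called 0 of the 7 genes and 0 of all genes at each time after Benjamini-Hochberg adjustment. At the thresholds of the study it called 4 of the 7 at each time. At those thresholds limma called 1 gene, Serpine2, between 48H CSF1 and 24H CSF1.

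Some values that missed the threshold changed sign. For S100a10 at 48H CSF1 the log2 difference was 0.11 with quantile normalization, 0.1 with normexp and quantile normalization, and between -0.11 and 0.05 with 1 array left out, and at 24H CSF1 it was -0.13 with median centring. Anxa2 was at -0.06 at 24H CSF1 with median centring, and between the stimulated groups at 0 with quantile normalization and 0.13 with median centring. Serpine2 was at -0.07 at 24H CSF1 with normexp and quantile normalization. Plaur between the stimulated groups ranged from -0.52 to 0.03 with 1 array left out. The cause was not tested.

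The labels do not say that a replicate number marks an experiment, and deviations from the group means correlated at 0.128, 0.0943 and 0.199 between groups. With the replicate number as a block (replicate block), 4 genes were called at 24H CSF1, 4 at 48H CSF1 and 0 between them, and the calls over all genes moved from 3453 to 3800 and from 3440 to 3967. Gene lists were not recomputed with arrays left out. Serpine2, close to background, is the gene that the signal limits.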

Other observations

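In the genes that rose, the second replicate gave the higher level in most groups. The log2 level of replicate 2 minus replicate 1 was 0.35 in Control, 0.92 at 24H CSF1 and 0.15 at 48H CSF1 for Plau, 0.23, 0.56 and 0.45 for Plaur, and 0.02, 1.39 and 0.98 for Serpinb2, whereas for Plat it was 0.04, -0.23 and 0.06. Over all 24648 genes tested the SD of this difference was 0.394, 0.371 and 0.395. The part of slide in the 24H CSF1 difference was not tested.

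Markers of cell types other than epithelium were measured beside these genes. In Control the log2 levels of fibroblast markers were 7.6 for Col1a2, 6.96 for Col1a1, -2.88 for Dcn and -3 for Pdgfra. Lum, also a fibroblast marker, was not well above background on any array and was not tested. The Control log2 levels of endothelial markers were 4.42 for Kdr, -1.87 for Pecam1, -4.29 for Cdh5 and -4.46 for Tek. Cdh5 and Tek were each well above background on 1 Control array only. Of 4 fibroblast markers tested, Dcn (decorin) rose at both times, with log2 fold changes of 2.08 (limma adjusted p = 0.0156) and 2.78 (limma adjusted p = 0.00746), Pdgfra rose at 24H CSF1 (1.33, limma adjusted p = 0.0176), and the collagen genes Col1a1 and Col1a2 fell at both times, by log2 fold changes between -0.88 and -1.44. Of 4 endothelial markers, Cdh5 (VE-cadherin), tested only through its CSF-1 arrays, was higher at both times (fitted 3.87 and 3.97). Pecam1, Kdr and Tek were not called. Their part in the changes of the plasminogen genes was not tested.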
